A study of Mus musculus with 764 samples.

Results

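The CD4+ T cells described here were spleen cells sorted for an IL-10 reporter that also carried transcript of Foxp3, the transcription factor that defines regulatory T (Treg) cells. They were taken from plate p1, among cells with at least 160000 reads on gene rows, by a count of at least 10 Foxp3 reads. They made up 36.2% of the kept cells of that plate and 17.3% of the 764 cells of the whole series. By reads of Ikzf2, a further Treg gene, they were 91 cells with at least 10 reads, 14 with 1 to 9 and 27 with 0. The comparison cells were the kept cells of p1 with 0 Foxp3 reads, 56.2%. A further 28 cells had 1 to 9 Foxp3 reads, 22 of them with a single read, and were set aside. The mice reported Il10 by eGFP and Foxp3 by mRFP, and had been injected with antibody against CD3, which activates T cells through their receptor and expands IL-10 producers in vivo. All groups shared this treatment, no untreated cells were analysed here, and the reporter marks cells in which the Il10 gene has been active rather than IL-10 protein. No animal is named for any well, and since a cell is no replicate of an animal the whole plate is 1 sample. Every difference below is therefore given without a p-value and without a replicate check, and describes these cells. Adult littermates matched for age and sex were used.

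Foxp3-expressing Treg cells restrain other T cells by direct contact, by consuming IL-2 through the high-affinity receptor chain CD25 and by secreting IL-10 and TGF-beta. In lymphoid tissue a resting form resembles naive T cells, while an activated form loses the naive programme and carries more receptors of the TNF receptor family and more chemokine receptors for tissue entry. IL-10 is also made by CD4+ T cells without Foxp3, among them type 1 regulatory (Tr1), Th1, Th2 and follicular helper cells, each with its own cytokines. Comparing both kinds of IL-10 reporter cells in the same plate describes which transcripts accompany Foxp3 among cells sorted by the same reporter. The cells were not matched for their level of Il10 transcript.

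The Foxp3 cells were spread unevenly over the plate. In well columns 1 to 12 they made up 57.5% of the cells (exact 95% binomial interval 49.9 to 64.8%), and in columns 13 to 24 15.2% (28 cells, 10.4 to 21.2%). All such intervals, and the bounds given for counts of 0, reflect counting alone, because amplified reads that carry no molecular identifiers do not each stand for a molecule. What the column sets stand for (an animal, a sort gate or a day) is not given in the labels, and these cannot be told apart, so values are given within each set unless said to be taken over both. Foxp3 cells and cells without Foxp3 reads had like depths, with a median of 362945 against 365209.5 reads per cell in columns 1 to 12 and of 376351 against 350892 in columns 13 to 24. After thinning every cell to 160000 reads, Foxp3 cells had reads of 3589 genes at the median and the others of 3079 in columns 1 to 12, and 3301.5 and 3187 in columns 13 to 24, and the ranges overlapped. Without thinning these medians were 3811.5 and 3324, and 3528.5 and 3439.

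Foxp3 itself chose the cells, and its values are a description. The lowest, median and highest level were 78.1, 421 and 1743 CPM (reads of a gene scaled to a common total of reads on gene rows of that cell) in columns 1 to 12, and 25.1, 375.7 and 1598 CPM in columns 13 to 24. In reads, this was 22 to 707 per cell and 10 to 701, so the level of Foxp3 was alike in both sets although the share of Foxp3 cells was not. The cells just inside the limit had 10, 11, 18, 21, 22 and 28 Foxp3 reads, and those just outside had 8, 8, 6, 5, 3 and 3. Few cells therefore lay near the limit. Foxp3 overlaps the genes Flicr and Ccdc22 in the annotation, and how reads of overlapping genes were counted, and whether strand was used, was not given in the sources used here.

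The label was checked against 4 further Treg markers, none of which the rule had used. All were at a higher mean level in the Foxp3 cells in both column sets, and none reached 2-fold in both. Ikzf2 encodes Helios, a transcription factor of many Treg cells. Its lowest, median and highest levels in Foxp3 cells were 0, 209.1 and 2207 CPM in columns 1 to 12 and 0, 302.5 and 1823 CPM in columns 13 to 24. Without Foxp3 reads they were 0, 0 and 3104 CPM and 0, 0 and 2365 CPM. The cells overlapped over the whole range, but most Foxp3 cells had Ikzf2 reads (81.7% and 71.4%) and fewer of the others did (48.4% and 42.7%). The log2 ratio of mean CPM + 10, Foxp3 cells over cells without Foxp3 reads, was 0.63 and 1.46 in columns 1 to 12 and 13 to 24.

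Il2ra, the CD25 chain of the IL-2 receptor, showed the widest gap between the column sets among the 4 markers. In columns 1 to 12 its levels were 0, 677 and 3782 CPM (lowest, median, highest) in Foxp3 cells and 0, 6.06 and 968 CPM without Foxp3 reads, a log2 ratio of 2.65. In columns 13 to 24 they were 0, 295.99 and 1572 CPM and 0, 32.4 and 2543 CPM, a log2 ratio of 0.27. Both sides moved between the sets, since the mean of the Foxp3 cells was lower in columns 13 to 24 (429.7 against 915 CPM) and that of the other cells higher (355.2 against 137.5 CPM). Tnfrsf18 (GITR) and Tnfrsf4 (OX40) are costimulatory receptors of the TNF receptor family that activated effector T cells carry too. Mean Tnfrsf18 was 1306 against 543 CPM and 1161 against 671 CPM, log2 ratios of 1.25 and 0.78. Mean Tnfrsf4 was 3966 against 2067 CPM and 2935 against 2017 CPM, log2 ratios of 0.94 and 0.54. Tnfrsf4 overlaps Sdf4, so its counts are uncertain in that respect. Counted per cell, 61.5% (51.5 to 70.9%) and 46.4% (27.5 to 66.1%) of Foxp3 cells had at least 10 reads of all 4 markers, against 12.9% (5.74 to 23.9%) and 12.6% (7.63 to 19.2%) of cells without Foxp3 reads. None of the Foxp3 cells had fewer than 2 of the markers at that level.

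**Figure D1:**
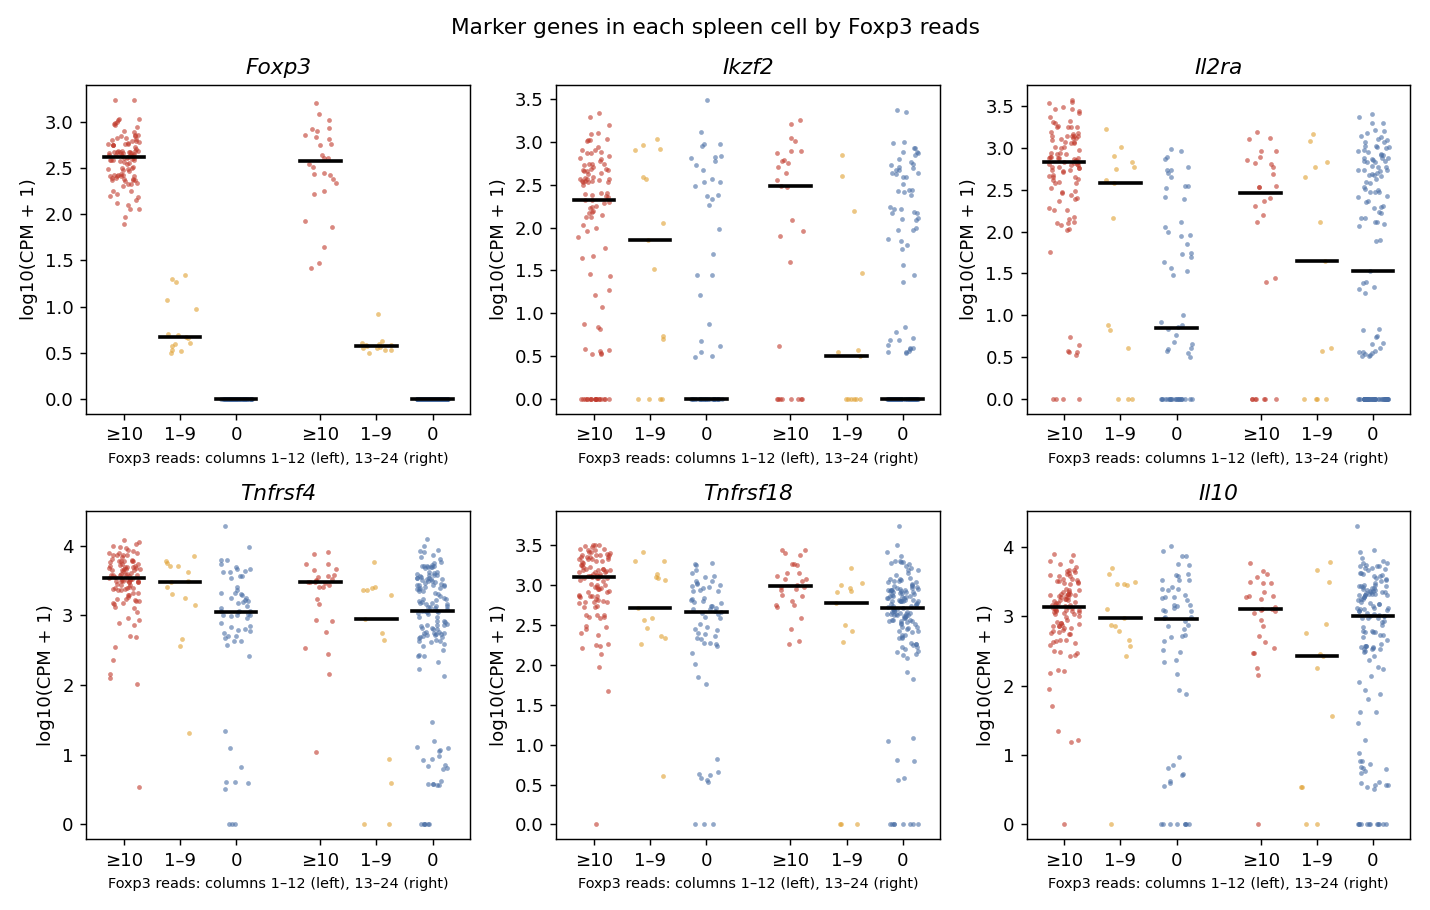
Each point is 1 spleen cell of plate p1, grouped by its Foxp3 reads (at least 10, 1 to 9, or 0) within well columns 1 to 12 (left) and 13 to 24 (right). The vertical axis is log10(CPM + 1) and black bars are medians. Tnfrsf4 and Tnfrsf18 are near-universal in Foxp3 cells, Ikzf2 has cells at 0 beside cells at high levels, and Il2ra is read in 96.2% and 75% of Foxp3 cells. Il10 has like mean CPM in Foxp3 cells and in cells without Foxp3 reads, but higher medians in Foxp3 cells.

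Il10, the gene behind the reporter, had like mean levels in both groups. Foxp3 cells had a lowest, median and highest level of 0, 1359 and 7836 CPM in columns 1 to 12 and 0, 1272 and 5888 CPM in columns 13 to 24. Cells without Foxp3 reads had 0, 905 and 10382 CPM and 0, 1021 and 20384 CPM. Mean levels were 1853 against 1696 CPM and 1733 against 1761 CPM, log2 ratios of 0.13 and −0.02. More of the Foxp3 cells carried it, with at least 10 Il10 reads in 96.2% and 96.4% of cells against 74.2% and 79.7%. The eGFP row of the table gave log2 ratios of −0.26 and 0.12. The medians were higher in Foxp3 cells in both sets, while the cell with the most Il10 in each set had 0 Foxp3 reads. What cells with little Il10 add to the differences below was not tested.

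Across all genes, 8418 had a mean of at least 10 CPM over the kept cells and were compared. A gene was counted as higher or lower when its log2 ratio passed 1, a 2-fold difference, in both column sets. By this rule 50 genes were higher in Foxp3 cells, 0.594% of the genes compared, and 1.35% were lower, together 1.95%. One of the 50 was Foxp3, which the rule of choice fixed. Either set alone gave more genes, with 3.85% higher and 3.97% lower in columns 1 to 12 and 3.05% higher and 8.51% lower in columns 13 to 24, where only 28 Foxp3 cells set the mean. Over all genes compared, the median log2 ratio was −0.03, and the ratios of the 2 sets had a standard deviation of 0.59 and 0.67 over genes. The split between higher and lower turned with the scale. With the mean of log2(CPM + 1) per cell in place of the mean CPM, 4.09% were higher and 0.677% lower, with the median gene at 0.27, and relative to that median 1.87% were higher and 1.19% lower.

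**Figure D2:**
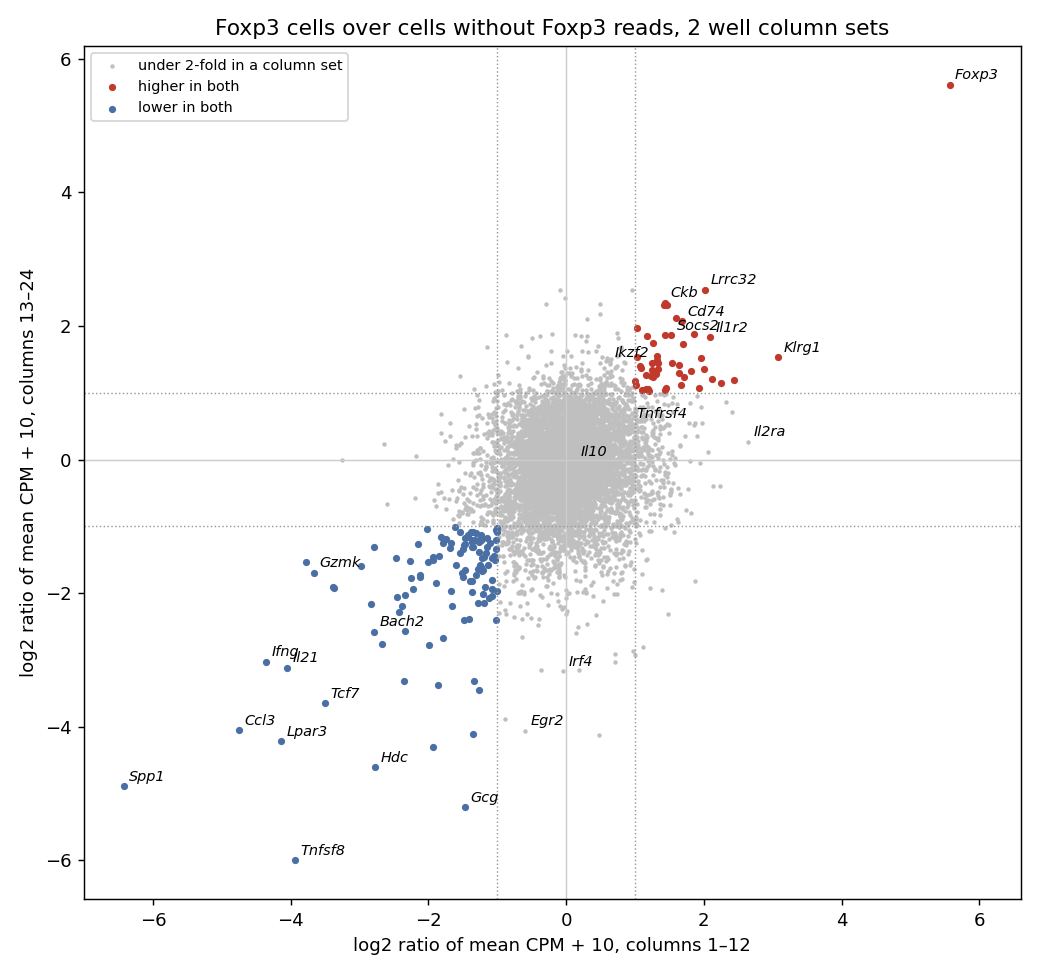
Each point is 1 of the 8418 genes compared. The axes give the log2 ratio of mean CPM + 10, Foxp3 cells over cells without Foxp3 reads, in well columns 1 to 12 (horizontal) and 13 to 24 (vertical), and dotted lines mark 2-fold. Red points are the 50 genes at least 2-fold higher in both sets, blue points the 1.35% at least 2-fold lower in both.

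The genes higher in Foxp3 cells were led, after Foxp3, by the surface receptors Klrg1, Lrrc32 and Il1r2. Lrrc32 encodes GARP, which holds latent TGF-beta on the surface of activated Treg cells. It had reads in 29.8% (21.2 to 39.6%) and 25% (10.7 to 44.9%) of Foxp3 cells, with a highest level of 1642 and 432 CPM and a median of 0. Among cells without Foxp3 reads it was read in 6.45% (1.79 to 15.7%) and 0.699% (0.0177 to 3.83%), and in columns 13 to 24 that was 1 cell. Mean levels were 113.7 against 20.6 CPM and 48.7 against 0.0848 CPM, log2 ratios of 2.01 and 2.54. Lrrc32 was at 0 reads in most Foxp3 cells and in nearly all other cells of columns 13 to 24.

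Il1r1 and Il1r2 encode the signalling receptor and the decoy receptor for IL-1. Il1r1 had reads in 24.04% and 25% of Foxp3 cells against 9.68% and 9.79% of the others, with means of 78.1 against 22.9 CPM and 132.8 against 18.7 CPM (log2 ratios 1.42 and 2.31). For Il1r2 the shares were 22.1% and 25% against 12.9% and 4.20%, and the means 111.2 against 18.4 CPM and 75.1 against 13.9 CPM (log2 ratios 2.10 and 1.84). Of the 26 Foxp3 cells with at least 10 Il1r1 reads, 11 (42.3%) also had at least 10 Il1r2 reads, which was 52.4% of the 21 cells with Il1r2 at that level. By contrast, 2 of the 35 Foxp3 cells with at least 10 Lrrc32 reads (5.71%) had Il1r1 at that level and 3 (8.57%) had Il1r2. These are counts of shared cells, and no test was made of them.

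Klrg1, an inhibitory receptor of strongly stimulated T cells, had the largest ratio after Foxp3 in columns 1 to 12 and rested on few cells. It had reads in 15.4% (9.06 to 23.8%) and 10.7% (2.27 to 28.2%) of Foxp3 cells, and in 6.45% (1.79 to 15.7%) and 10.5% (5.99 to 16.7%) of the others, with highest levels of 2725 and 1708 CPM against 227.3 and 1102 CPM. In columns 13 to 24 the 3 Foxp3 cells with a read made up the whole mean, and the shares of cells were alike. Without the highest cell of each group its log2 ratio there was 0.49 in place of 1.53, and 3.15 in place of 3.08 in columns 1 to 12. Of the 15 Foxp3 cells with at least 10 Klrg1 reads, 14 (93.3%) had as many Ccr8 reads, 12 (80%) as many Ikzf2 reads and 3 (20%) as many Lrrc32 reads. Ccr8 and Ikzf2 were at that level in 80.3% and 68.9% of all Foxp3 cells.

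More widely spread was Socs2, a suppressor of cytokine signalling that is switched on by STAT5 downstream of IL-2. Foxp3 cells ran from 0 over a median of 90.8 to 1667 CPM in columns 1 to 12 and from 0 over 107.6 to 822 CPM in columns 13 to 24, while the median of the others was 0 in both sets. It had reads in 64.4% (54.4 to 73.6%) and 71.4% (51.3 to 86.8%) of Foxp3 cells and in 22.6% (12.9 to 34.97%) and 17.5% (11.6 to 24.7%) of the others. Socs2 was picked for its difference between these same cells, so the gap between the shares is no test. The log2 ratios were 1.53 and 1.86. Tnfrsf1b, the TNF receptor TNFR2, was read in 99.04% and 96.4% of Foxp3 cells at a mean of 1399 and 1538 CPM, against 508 and 729 CPM (log2 ratios 1.44 and 1.07). Ccr8, the receptor of the chemokine CCL1, had a median of 489 and 488 CPM in Foxp3 cells against 3.35 and 5.91 CPM in the others (log2 ratios of the means 1.44 and 1.04). Capg, which caps actin filaments, had medians of 863 and 957 CPM against 119.9 and 310.9 CPM (log2 ratios 1.72 and 1.24).

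The other leading genes higher in Foxp3 cells named here differed in the share of cells that had reads. Ckb, the brain-type creatine kinase, had reads in 48.1% and 42.9% of Foxp3 cells against 17.7% and 14.7%. Dst, a linker of the cytoskeleton, had reads in 37.5% and 46.4% against 11.3% and 6.29%. For Ankrd55, an ankyrin repeat protein, the shares were 39.4% and 46.4% against 6.45% and 8.39%, and for C1qtnf6, a secreted protein of the C1q and TNF related family, 39.4% and 32.1% against 1.61% and 5.59%. Cerk, ceramide kinase, was read in 19.2% and 17.9% against 1.61% and 3.497%, with log2 ratios of 1.86 and 1.88. Ncmap, Swap70 (an actin-binding protein of Rac signalling), Prg4 (the lubricating proteoglycan lubricin) and Cd74 (the invariant chain of MHC class II, also a receptor for the cytokine MIF) had log2 ratios of 1.70 and 1.73 for Ncmap, 2.25 and 1.15 for Swap70, 2.44 and 1.19 for Prg4 and 1.69 and 2.07 for Cd74, which B cells and other antigen-presenting cells express strongly. Of the 49 genes other than Foxp3, 48 had reads in a larger share of Foxp3 cells than of the other cells in both sets. How many of all genes compared did so was not counted. Foxp3 cells had reads of more genes at the median even after thinning, so the 48 is no separate evidence for these genes. When the highest cell of each group was left out, 33 of the 49 stayed above 2-fold in both sets. Klrg1, Prg4, Swap70, Ccr8, Tnfrsf1b and Gpr83, a receptor long tied to Treg cells, were among the 16 that did not. Ccr8 and Tnfrsf1b then stood at 1.73 and 0.99 and at 1.51 and 0.92, close to 2-fold in columns 13 to 24, while Klrg1 and Gpr83 fell to 0.49 and 0.31 there. Dst overlaps Bend6 and Prg4 overlaps Tpr, so that their counts are uncertain.

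**Figure D3:**
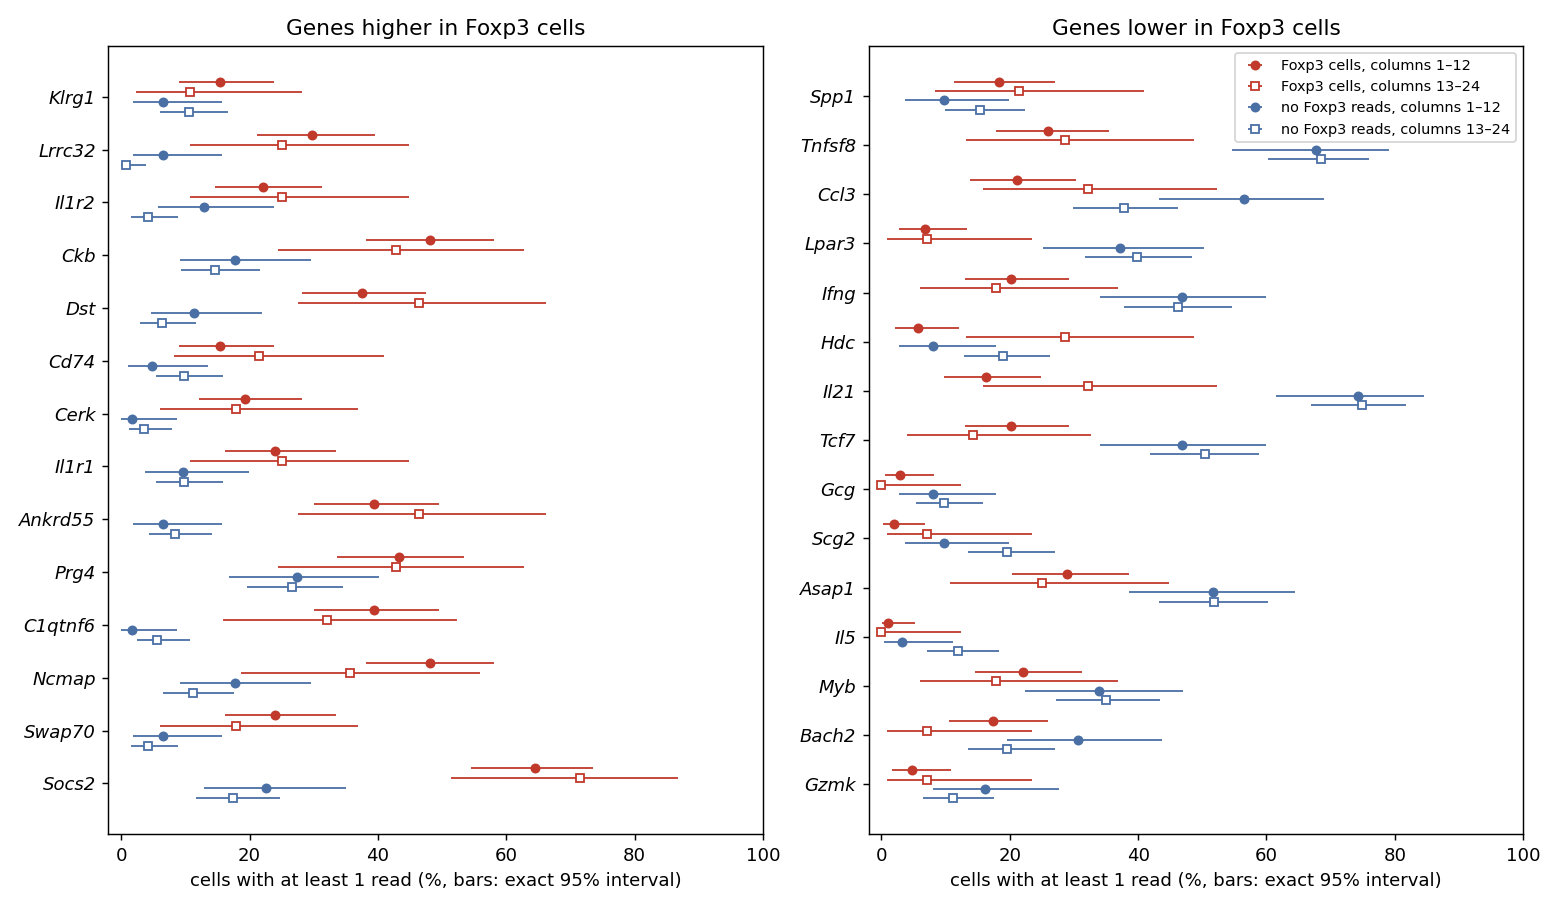
Share of cells with at least 1 read (percent, with exact 95% binomial intervals for counting error) of the leading genes higher (left, Foxp3 left out) and lower (right) in Foxp3 cells. Red marks are Foxp3 cells and blue marks cells without Foxp3 reads, filled for columns 1 to 12 and open for 13 to 24. All genes shown were picked for their difference between these same cells, so gaps between the marks, as for Socs2 and Il21, are no test. Spp1 and Hdc, lower in mean CPM, were read in no smaller a share of Foxp3 cells in columns 13 to 24.

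The genes lower in Foxp3 cells included ligands and cytokines of helper T cells. Tnfsf8, the ligand of CD30, ran from 0 over a median of 112.6 to 8855 CPM in cells without Foxp3 reads of columns 1 to 12, and from 0 over 131.1 to 12652 CPM in columns 13 to 24. In Foxp3 cells the median was 0 in both sets and the highest level 2659 and 60.3 CPM. At least 10 reads were found in 7.69% and 3.57% of Foxp3 cells against 54.8% and 55.2% of the others. The log2 ratio was −3.94 in columns 1 to 12, and −4.97 as the mean of both sets. Il21, the cytokine that follicular helper cells give to B cells, had a median of 65.5 and 98.8 CPM in cells without Foxp3 reads and of 0 in Foxp3 cells, where the highest cells reached 152.5 and 168.5 CPM. Its share of cells with reads was 16.3% (9.82 to 24.9%) and 32.1% (15.9 to 52.4%) in Foxp3 cells against 74.2% (61.5 to 84.5%) and 74.8% (66.9 to 81.7%), with log2 ratios of −4.05 and −3.12. Ifng, the leading cytokine of Th1 cells, had a mean of 19.2 and 28.98 CPM in Foxp3 cells against 591 and 307.4 CPM (log2 ratios −4.36 and −3.03), and at least 10 reads in 9.62% and 10.7% of cells against 40.3% and 40.6%.

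Il4, a Th2 cytokine, was at 0 reads in every Foxp3 cell and had reads in 4.84% and 15.4% of the others, at a mean of 10.2 and 42.7 CPM. If reads were independent, a count of 0 would allow up to 3 reads over a group. By this read bound Il4 was 124.7-fold lower in columns 1 to 12 and 143.6-fold lower in columns 13 to 24. Counts of cells support no such folds. In columns 1 to 12 a count of 0 allows up to 3.48% of the Foxp3 cells, beside 4.84% of the others. In columns 13 to 24 it allows 12.3%, beside 15.4%. The comparison reads lay in few cells, and without the highest cell of each group the log2 ratios of Il4 were −0.49 and −1.92, in place of −1.01 and −2.40. Il5, also of Th2 cells, was likewise at 0 in the 28 Foxp3 cells of columns 13 to 24, 544-fold lower by the same read bound. It had reads in 11.9% of the other cells there, within the 12.3% that 0 of 28 cells allows. In columns 1 to 12 most of the comparison reads of Il5 came from 1 cell of 972 CPM. Cd40lg, through which helper T cells license B cells, and Fasl, a death ligand, had log2 ratios of −2.27 and −1.52 for Cd40lg and −2.26 and −1.78 for Fasl. Lists of genes, here and below, were chosen with results of these data known, and some share genes, such as Fasl, Il4 and Il21. Their counts are therefore no test and no separate evidence. Of the 11 measured effector cytokines and ligands, 7 were lower in both sets, beside 1.35% of all genes compared, and none higher. Il4 and Il5 were not among the 5 that remained without the highest cell of each group. The median of their mean log2 ratios was −1.89, or −2.02 with Il4 and Il5 at the bounds their 0 reads give, against −0.03 over all genes compared. Tnf (−0.003 and −0.52), Lta (−1.24 and −0.92), Ltb (−0.49 and 0.71) and Tnfsf11 (−2.65 and 0.24) did not pass in both.

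Several chemokine and cytotoxic genes were also lower. Ccl3, an inflammatory chemokine, had a mean of 20.7 and 24.4 CPM in Foxp3 cells against 814 and 559 CPM, with log2 ratios of −4.75 and −4.05. Ccl4 and Ccl5, also chemokines, had log2 ratios of −2.43 and −2.28 for Ccl4 and −3.78 and −1.53 for Ccl5, although a read of Ccl5 was found in 53.8% and 71.4% of Foxp3 cells against 59.7% and 75.5% of the others, so that for Ccl5 the groups differed in level rather than in the share with a read. Ccl3 and Ccl4 overlap in the annotation and cannot be fully separated here. Gzmk, a granzyme, was read in 4.81% and 7.14% against 16.1% and 11.2% of cells (log2 ratios −3.66 and −1.69), and Prf1, the pore-forming perforin, had log2 ratios of −1.89 and −1.85. In all, 7 of 15 measured cytotoxic granule and chemokine genes were lower in both sets, beside 1.35% of all genes, and all 7 remained without the highest cells. None was higher, with a median of −1.27. Gzmb, a granzyme that Treg cells use as well, had 0.24 and 0.84 and did not pass.

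Some genes of naive and central memory T cells were lower in Foxp3 cells. Tcf7 encodes TCF-1, which keeps T cells able to self-renew. It had at least 10 reads in 8.65% and 7.14% of Foxp3 cells against 35.5% and 35.7% of the others, highest levels of 572 and 216.99 CPM against 2639 and 2734 CPM, and log2 ratios of −3.504 and −3.64, alike in the 2 sets. Its annotated gene overlaps Skp1. Cells without Foxp3 reads in columns 1 to 12 with 2639, 2356 and 2129 CPM of Tcf7 had 0, 5.46 and 0 CPM of Il10. Those that followed, with 1748, 1439, 1316 and 1313 CPM of Tcf7, had 8.49, 2.55, 0 and 0 CPM of Il10. The next, with 1173 CPM of Tcf7, had 3782 CPM of Il10. The part of cells with little Il10 in the ratio of Tcf7 was not tested. Bach2, a repressor that holds back effector programmes, was at 0 to 341.9 CPM in the Foxp3 cells of columns 1 to 12 and at 0 to 3.47 CPM in those of columns 13 to 24, against highest levels of 1443 and 1198 CPM (log2 ratios −2.79 and −2.58). Ccr7, the receptor that guides T cells into lymphoid tissue, had log2 ratios of −1.86 and −3.38, and Bcl2, a survival factor, −1.16 and −1.31, the latter falling under 2-fold in columns 1 to 12 without the highest cell of each group (−0.83). Of 12 measured genes of this list 4 were lower, beside 1.35% of all genes, 3 of them also without the highest cells, and none was higher, with a median of −0.74. Foxo1 (0.90 and 0.23) and Il7r (0.26 and −0.16) were among those that did not pass. Myb, another transcription factor of lymphocytes, had log2 ratios of −2.68 and −2.76. Lpar3, a receptor for lysophosphatidic acid, had reads in 6.73% and 7.14% of Foxp3 cells, none above 19.1 CPM, against 37.1% and 39.9% of the others, up to 2099 CPM. Asap1, a regulator of Arf GTPases, had log2 ratios of −2.36 and −3.32.

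Some of the largest ratios rested on single cells. Spp1, which encodes osteopontin, had the largest negative mean ratio (−5.66), but 1 cell without Foxp3 reads in each set, of 48728 and 37222 CPM, held 83.9% and 88.3% of the group's reads. Foxp3 cells had a read of it more often (18.3% and 21.4% against 9.68% and 15.4%), at no more than 11.9 CPM. Without the highest cell of each group, the log2 ratios of Spp1 were −3.91 and −2.57. Hdc (histidine decarboxylase), Gcg (proglucagon), Scg2 (secretogranin II) and Il5 fell under 2-fold in columns 1 to 12 without those cells, at −0.01, −0.51, −0.80 and −0.01, where their ratios with all cells were −2.77, −1.47, −1.94 and −1.36. The highest Gcg cell, without Foxp3 reads, had 47451 CPM. Tnfsf8, Ccl3, Lpar3, Ifng, Il21, Tcf7, Asap1, Myb, Bach2 and Gzmk remained at least 2-fold lower in both sets, as did 96 of all lower genes, with 18 that did not. Of the lower genes, 98 had reads in a smaller share of Foxp3 cells in both sets, which was not counted over all genes compared.

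Groups of genes were described through lists chosen with results of these data known. Of 23 measured Treg surface receptors 6 were higher (Il1r2, Tnfrsf1b, Klrg1, Lrrc32, Gpr83 and Ccr8), beside 0.594% of all genes compared, and none was lower in both sets. Without the highest cell of each group 2 of the 6 remained, Il1r2 and Lrrc32. Of the 23 genes 19 had a ratio above 0 in both sets, which was not counted over all genes compared, and the median was 0.85. Ctla4, the checkpoint receptor by which Treg cells strip costimulatory ligands, was read in every cell of both groups, at medians of 4299.6 and 6651 CPM in Foxp3 cells against 2335 and 2136 CPM, and its log2 ratios of the means were 0.49 and 1.22. The log2 ratios were 1.42 and 0.97 for Tnfrsf9 (4-1BB), 1.23 and 0.61 for Itgae (CD103) and 0.95 and 0.59 for Il2rb, a chain shared by the receptors of IL-2 and IL-15. They were 0.05 and 0.38 for Icos and 0.20 and 0.11 for Tigit. In the opposite direction, Il1rl1, the IL-33 receptor ST2 of some tissue Treg cells, was at 0 reads in the 28 Foxp3 cells of columns 13 to 24. The others there had a mean of 137.3 CPM, 461-fold higher by the read bound, which treats reads as independent. In columns 1 to 12 few cells of either group had Il1rl1 (3.85% against 3.23%). Nrp1 had log2 ratios of −0.82 and −2.15.

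The counts in this paragraph stand beside 0.594% higher and 1.35% lower over all genes compared. With so small a share, none higher in a list of this length is no result about the list. None of 17 measured transcription factors of Treg cells other than Foxp3 was higher in both sets, and Bach2 and Rel were lower, with a median of −0.21. Rel, the NF-kappaB subunit c-Rel, had log2 ratios of −1.40 and −2.39. Irf4, a factor of effector Treg cells, differed between the sets: its mean in Foxp3 cells was 283.5 CPM in columns 1 to 12 and 45.9 CPM in columns 13 to 24, against 291.6 and 491 CPM in the other cells. The difference between the sets was not tested. The log2 ratios were 0.30 and 0.38 for Runx1, −0.23 and 0.16 for Batf and 0.15 and −0.73 for Gata3. Among 14 measured genes of the list of IL-10 and its regulators, Bhlhe40, which represses Il10 in helper T cells, was lower in Foxp3 cells (−2.98 and −1.60) and none was higher. Maf and Prdm1 (Blimp-1) promote Il10, and had log2 ratios of −0.58 and −0.38 for Maf and 0.24 and 0.75 for Prdm1. Egr2 had −0.60 and −4.06, with reads in 1 of the 28 Foxp3 cells of columns 13 to 24. Of 15 suppressive mediators other than IL-10, Lrrc32 was higher and Prf1 lower. Areg, a repair factor, reached 1425 CPM and had log2 ratios of 2.24 and −0.39, and Tgfb1 had 0.08 and 0.20.

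Co-inhibitory receptors, by which the study divided IL-10 producers without Foxp3, mostly did not pass 2-fold in both sets. Over all genes compared, 0.594% were higher and 1.35% lower. Pdcd1 (PD-1) alone of 10 measured genes was lower in both sets, at medians of 240.02 and 359.1 CPM in Foxp3 cells against 501 and 644 CPM (log2 ratios of the means −1.48 and −1.17), though a like share of Foxp3 cells had reads (76.9% and 89.3% against 75.8% and 92.3%). Havcr2 (TIM-3) had −1.86 and −0.51, Lag3 −0.53 and −0.43 and Btla −0.76 and −1.82. Of 10 measured genes of follicular helper cells 4 were lower in both sets (Pdcd1, Tox2, Il21 and Il4), beside 1.35% of all genes, and Il4 was the 1 that did not remain without the highest cells. All 10 had a ratio below 0 in both sets, which was not counted over all genes compared, and the median was −1.18. Cxcr5, the receptor that brings cells to the B cell follicle, had −0.43 and −0.93, and Cd200 −0.64 and −2.66.

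**Figure D4:**
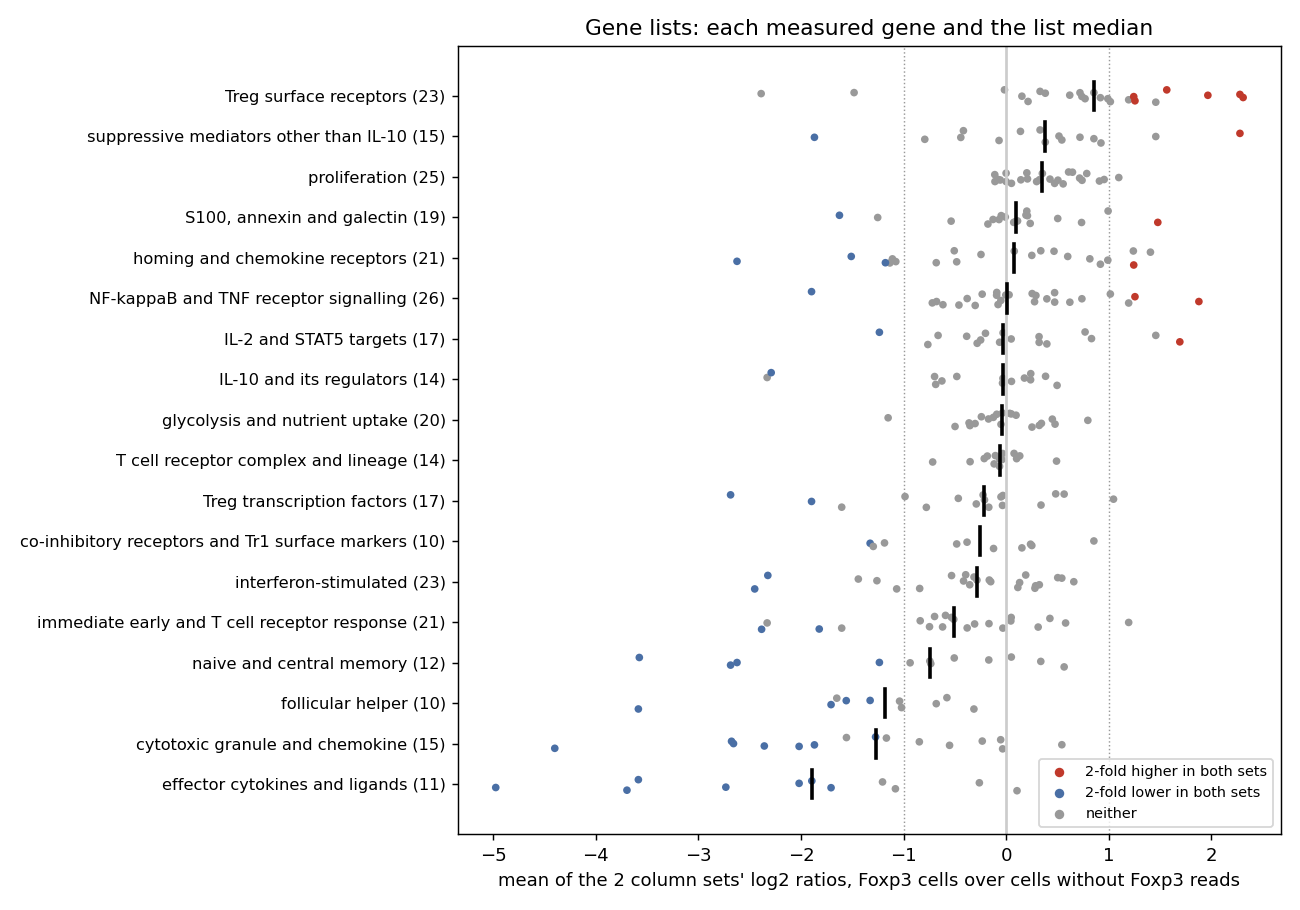
Each point is 1 measured gene of a list, placed by the mean of its log2 ratios in columns 1 to 12 and 13 to 24 (Foxp3 cells over cells without Foxp3 reads). Black bars are list medians, numbers in parentheses the genes measured, and red and blue points are at least 2-fold higher or lower in both sets. The median of Treg surface receptors is 0.85 and that of effector cytokines and ligands −1.89.

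None of 14 measured genes of the T cell receptor complex and T cell lineage passed 2-fold in both sets and their median was −0.06. This count and those below stand beside 0.594% higher and 1.35% lower over all genes compared. At such shares, none passing in a list of this length is no result about the list. Cd3d, Cd3e, Cd3g and Cd4 were read in 100% of Foxp3 cells. Cd4 was the gene of the list farthest from 0 (−0.82 and −0.61), at a median of 969 and 920.5 CPM in Foxp3 cells against 1683 and 1396 CPM. Of 21 immediate early and T cell receptor response genes, Ier3 and Nr4a2 were lower in Foxp3 cells and none was higher, with a median of −0.51. Nr4a2, an orphan nuclear receptor induced within hours of receptor signalling, was read in 1 Foxp3 cell and in 16.1% and 12.6% of the others. None of 25 proliferation genes passed, although 17 had a ratio above 0 in both sets and the median was 0.35. How many of all genes compared had a ratio above 0 in both sets was not counted. Ccnb1 and Ube2c, of the G2 and M phases, had log2 ratios of 1.31 and 0.88 for Ccnb1 and 0.94 and 0.87 for Ube2c. Cell cycle calls with cyclone placed 30.8% and 32.1% of Foxp3 cells outside G1, against 20.97% and 16.8% of the others. Their part in the differences above was not tested, and among cells called G1 alone 0.978% of genes were higher and 2.16% lower. None of 20 glycolysis and nutrient uptake genes passed, with a median of −0.04.

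Most markers of other cell types were read in few cells of either group. Of 9 B cell markers, 5 were at 0 reads in the Foxp3 cells of columns 1 to 12 and 6 in those of columns 13 to 24. Cd79b, of the B cell receptor, was read in 10.6% and 7.14% of Foxp3 cells against 0% and 2.80% of the others, and Cd22 in 4.81% and 7.14% against 3.23% and 11.9%. Of 14 myeloid markers 7 were at 0 in each set, and Cst3 (cystatin C), the one most often read, was read in 80.8% and 89.3% of Foxp3 cells against 72.6% and 81.1%. Cd8b1 had reads in 18.3% and 17.9% against 11.3% and 16.1%. Epcam, an epithelial marker, had reads in 20.2% and 7.14% against 9.68% and 9.79%. The summed level over the Foxp3 cells of columns 1 to 12 and 13 to 24 ran from 0 to 288.8 and 444 CPM for B cell markers, from 0 to 891 and 890.2 CPM for myeloid markers, from 0 to 452 and 497 CPM for markers of CD8 T and NK cells, and from 0 to 1306 and 75.9 CPM for erythroid and epithelial markers. In the other cells the highest sums were 215.5 and 972, 1033 and 1803, 853 and 947, and 772 and 705 CPM. The part of such cells in the differences was not tested.

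Within single cells the leading genes were counted together. Of the 13 leading higher genes that at least 10% of Foxp3 cells carried at 10 reads or more in both sets, 3 or more were found together in 73.1% and 64.3% of Foxp3 cells and in 9.68% and 2.80% of cells without Foxp3 reads. Of the 8 leading lower genes carried at that level by at least 25% of the cells without Foxp3 reads in both sets (Tnfsf8, Ccl3, Lpar3, Ifng, Il21, Tcf7, Asap1 and Myb), 3 or more were found in 1.92% and 7.14% of Foxp3 cells and in 72.6% and 71.3% of the others, while 50.96% and 57.1% of Foxp3 cells carried none of them. These genes were picked for their difference between the same cells, and then kept by their share in the group where they are higher. The direction and much of the size of the contrast follow from that choice, and only the distribution over cells is described. The 28 cells with 1 to 9 Foxp3 reads entered neither group. They carried 3 or more of the 8 lower genes in 46.7% and 61.5%, and 3 or more of the 13 higher genes in 6.67% and 0%, nearer to the cells without Foxp3 reads in both respects. Single genes did not all lie on that side. The mean of Tnfsf8 in columns 1 to 12 was 948 CPM, against 57.1 CPM in Foxp3 cells and 1024 CPM without Foxp3 reads, and in columns 13 to 24 it was 300.8 CPM, against 3.23 CPM in Foxp3 cells and 837 CPM without Foxp3 reads. For Tcf7 it was 535 CPM, against 22.3 CPM in Foxp3 cells and 356.3 CPM without Foxp3 reads in columns 1 to 12, and 224.3 CPM, against 9.06 CPM in Foxp3 cells and 228.2 CPM without Foxp3 reads in columns 13 to 24. Capg was at 498 CPM, against 899.6 CPM in Foxp3 cells and 266.8 CPM without Foxp3 reads in columns 1 to 12, and at 352.5 CPM, against 962 CPM in Foxp3 cells and 402 CPM without Foxp3 reads in columns 13 to 24. By contrast, Ccl3 was at a mean of 0.157 CPM, against 20.7 CPM in Foxp3 cells and 814 CPM without Foxp3 reads in columns 1 to 12, and of 23.5 CPM, against 24.4 CPM in Foxp3 cells and 559 CPM without Foxp3 reads in columns 13 to 24, at or below the Foxp3 cells. Ifng was at 29.5 CPM, against 19.2 CPM in Foxp3 cells and 591 CPM without Foxp3 reads in columns 1 to 12, near the Foxp3 cells, and at 160.4 CPM, against 28.98 CPM in Foxp3 cells and 307.4 CPM without Foxp3 reads in columns 13 to 24, between both groups. Ikzf2 was at 307.3 CPM, against 337.2 CPM in Foxp3 cells and 214.1 CPM without Foxp3 reads in columns 1 to 12, and at 99.6 CPM, against 425 CPM in Foxp3 cells and 148.2 CPM without Foxp3 reads in columns 13 to 24, where it was below both groups. These are means of 15 and 13 cells.

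In all, 4 Foxp3 cells carried 3 or more of the 8 lower genes. One of them, in columns 13 to 24, had 18 Foxp3 reads, 7 of the 8 genes and 7428 genes with a read, the most of any Foxp3 cell, at 414859 reads. Whether its well held more than 1 cell was not tested, and no doublet caller was run. Without it 0.665% of genes were higher and 1.46% lower, and all 50 higher genes found with it were among them.

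**Figure D5:**
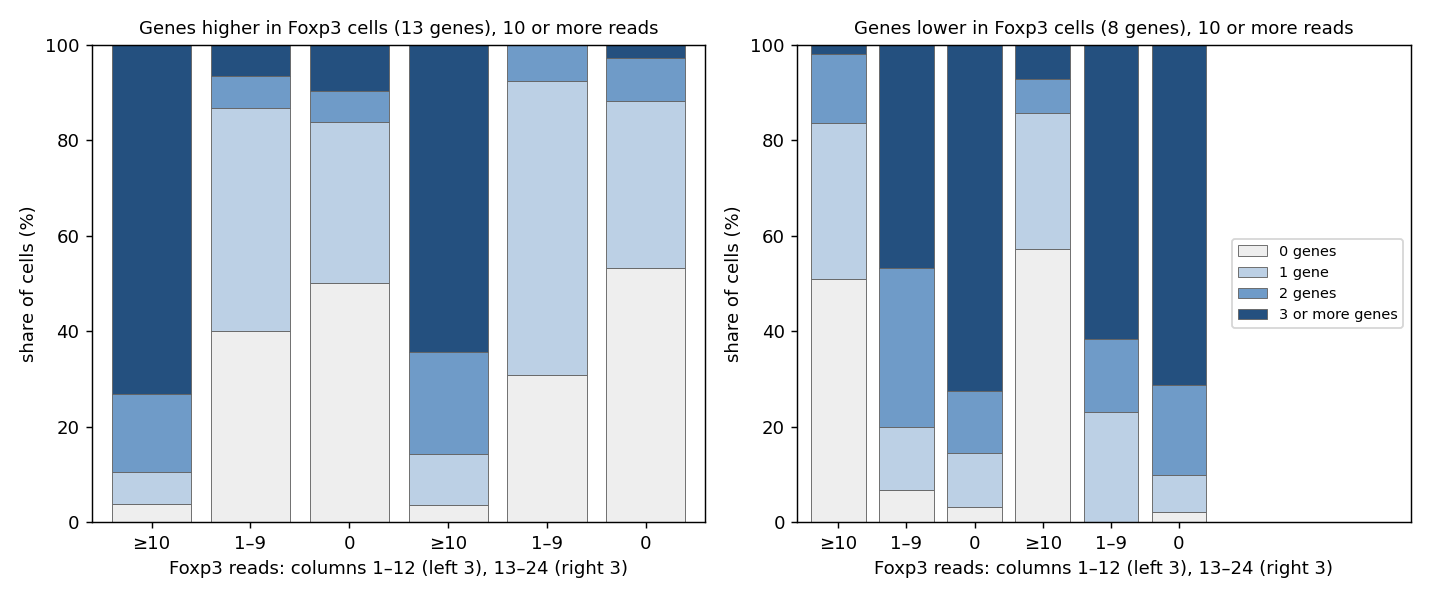
Share of cells (percent) by the number of genes with at least 10 reads, among 13 leading genes higher in Foxp3 cells (left) and 8 leading genes lower in them (right). The genes were picked for their difference between these same Foxp3 cells and cells with 0 reads, so that contrast follows from the choice. Bars are Foxp3 read classes within columns 1 to 12 (left 3 bars) and 13 to 24 (right 3 bars). By these counts cells with 1 to 9 Foxp3 reads lie nearer to cells with 0 reads than to cells with at least 10.

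Foxp3 cells differed among themselves in Ikzf2. At least 10 Ikzf2 reads were found in 69.2% (59.4 to 77.9%) and 67.9% (47.6 to 84.1%) of them, 1 to 9 reads in 12.5% and 3.57%, and 0 reads in 18.3% (11.4 to 27.1%) and 28.6% (13.2 to 48.7%). The share with at least 10 reads was alike in both column sets. Median depth was 366538 reads in the 91 cells with at least 10 Ikzf2 reads and 349506 in the 27 cells with 0. Between these 2 groups of Foxp3 cells, taken over both sets, Lrrc32 was higher with Ikzf2 (mean 114.6 against 27.2 CPM, log2 ratio 1.74, within the sets 1.85 and 1.06, read in 32.97% against 14.8% of cells). Il1r1 was lower with Ikzf2 (52.4 against 202.1 CPM, log2 ratio −1.76), with −1.72 and −1.76 in the 2 column sets. Ccr9, the gut-homing chemokine receptor, had 86.7 against 280.9 CPM (log2 ratio −1.59, within the sets −1.83 and −0.78). Il10 was at 1614 CPM with and 2277 CPM without Ikzf2 reads (−0.48 and −0.54 in the 2 sets), and within the sets Ctla4 had −0.19 and 0.08 and Icos −0.03 and 0.55. In columns 13 to 24 the group without Ikzf2 reads held 8 cells, and no test was made. The genes named for this split were picked from many, and others differed as much or more. The share of all genes compared that did so is not given here. Over the cells of columns 1 to 12 Spearman's rho of Foxp3 CPM with Ikzf2, Il2ra, Tnfrsf4 and Tnfrsf18 CPM was 0.06, −0.15, −0.10 and −0.06, and over the 28 of columns 13 to 24 it was 0.29, 0.54, −0.02 and −0.04. The cells of a set share 1 plate and differ in depth.

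Promoters were searched for 3 motifs, in RefSeq windows of 300 bases around each annotated start (GRCm38.p6), on both strands: the forkhead motif GTAAACA, bound by Foxp3 and its relatives, the NFAT core TGGAAA and the AP-1 motif TGANTCA, whose factors act with Foxp3 on shared sites. Of the 49 higher genes 37 had a window, 49 windows in all, and 1 (2.04%) held the forkhead motif, 6 (12.2%) the NFAT core and 4 (8.16%) the AP-1 motif. Of the lower genes 82 had a window, and 3.70%, 24.1% and 5.56% of their windows held them. Over all genes compared the shares were 2.56%, 16.1% and 4.58% of 8292 windows, and over all RefSeq windows 3.65%, 21.4% and 7.81%. A match is a description of the letters in the window and no evidence of binding. Shown are a Foxp3 window, because Foxp3 chose the cells, that of Swap70, the higher gene with the forkhead motif, and those of Il21 and Tcf7, which hold NFAT cores and a forkhead motif among the leading lower genes. Capitals mark motif matches on either strand, and each sequence runs 5′ to 3′ on the strand of the gene.
Foxp3, chrX:7580233-7580532, plus strand: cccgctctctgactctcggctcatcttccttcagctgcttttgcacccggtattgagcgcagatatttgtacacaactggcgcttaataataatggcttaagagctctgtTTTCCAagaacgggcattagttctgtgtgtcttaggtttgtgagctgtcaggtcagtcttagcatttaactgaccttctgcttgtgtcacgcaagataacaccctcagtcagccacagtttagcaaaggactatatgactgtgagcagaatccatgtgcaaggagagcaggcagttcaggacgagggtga
Swap70, chr7:110221453-110221752, plus strand: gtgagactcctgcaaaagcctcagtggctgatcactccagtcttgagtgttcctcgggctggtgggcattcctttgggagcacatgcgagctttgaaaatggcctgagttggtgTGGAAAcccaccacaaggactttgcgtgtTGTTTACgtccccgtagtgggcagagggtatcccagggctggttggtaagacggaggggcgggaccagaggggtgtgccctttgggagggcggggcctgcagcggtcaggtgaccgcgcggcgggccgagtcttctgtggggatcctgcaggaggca
Il21, chr3:37232587-37232886, minus strand: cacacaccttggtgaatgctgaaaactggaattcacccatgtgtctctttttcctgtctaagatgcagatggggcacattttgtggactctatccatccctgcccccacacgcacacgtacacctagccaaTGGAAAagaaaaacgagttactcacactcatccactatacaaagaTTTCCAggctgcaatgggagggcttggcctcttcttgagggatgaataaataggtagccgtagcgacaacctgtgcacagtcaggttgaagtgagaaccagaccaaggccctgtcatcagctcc
Tcf7, chr11:52282546-52282845, minus strand: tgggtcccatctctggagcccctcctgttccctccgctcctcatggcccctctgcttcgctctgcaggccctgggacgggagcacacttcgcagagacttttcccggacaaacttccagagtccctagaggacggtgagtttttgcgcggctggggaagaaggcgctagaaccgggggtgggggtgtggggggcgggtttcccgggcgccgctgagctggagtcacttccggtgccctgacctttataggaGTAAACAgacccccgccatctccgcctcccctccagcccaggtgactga

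The Swap70 window holds both an NFAT core and, on the opposite strand, the forkhead motif. The Foxp3 window shown holds 1 NFAT core, and the other annotated Foxp3 window holds none of the 3 motifs. The Il21 window holds 2 NFAT cores.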

How the data were processed

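Single cells were sequenced with SMART-seq2 (full-length cDNA, no molecular identifiers). The authors aligned the read pairs with STAR using splice junctions from a first pass, and deposited whole-number counts per gene row (23997 rows and an eGFP row, 764 cells). The methods and labels name different mouse builds, and the counting tool and annotation were not given in the sources used here, so no position of the files is given. The 88 rows that join several genes were not named. Cells of p1 with at least 160000 reads were kept (365 of 382, 161141 to 538768 reads, median 357251): 132 Foxp3 cells (104 in columns 1 to 12, 28 in 13 to 24), 205 with 0 Foxp3 reads (62 and 143) and 28 between, and no pair held identical values. No doublet caller was run, since cells were sorted into wells. CPM over gene rows was computed here per cell. A log2 ratio was log2 of (mean CPM of Foxp3 cells + 10) over (mean CPM of cells without Foxp3 reads + 10) within columns 1 to 12 and 13 to 24. This understates the ratio of low genes, and no test was run because each group was 1 sample. "Mean log2 ratio" is the mean of the 2 sets. Of 8418 genes compared, 50 were higher and 114 lower. Named genes were the markers and Il10, the 15 called genes with the largest mean ratio each way and the 4 farthest from 0 in each of 22 lists. Some results are not reported here. Other genes named were chosen after their values were seen. The members and lists were chosen with earlier results of these data known. Size factors came from edgeR 4.0.16 and scran 1.30.0 in R 4.3.3, all else from Python 3.11.15 with numpy 2.4.6, pandas 2.3.3 and scipy 1.17.1. The calculation was tested on simulated data. Alternatives were other pseudocounts, filters, size factors, depths, Foxp3 limits, cell cycle phases and column sets.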

Additional observations from a re-analysis of the deposited data

Results flagged for a closer look

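Foxp3 transcript was also found in cells outside the comparison. On plate p2, 8 spleen cells over the depth limit had at least 10 Foxp3 reads, 4.47% of them (exact 95% interval 1.95 to 8.62%), and the share was lower than in either column set of p1. Their lowest, median and highest Foxp3 levels were 156.3, 614 and 997 CPM. Mean Il2ra was 966 CPM against 163.2 CPM in the spleen cells of p2 with 0 Foxp3 reads, and mean Tnfrsf4 3583 against 1335 CPM. Ikzf2 was at 127.7 against 132.4 CPM. Tnfsf8 was at 0 in all 8 cells against a mean of 511 CPM, and Tcf7 reached at most 3.54 CPM against a mean of 676 CPM. Lrrc32 had reads in 2 of the 8 cells and a mean of 0 in the others.

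In the small intestine 8 cells, 4.57% (1.99 to 8.81%), had at least 10 Foxp3 reads, at 371.1, 904 and 1623 CPM (lowest, median, highest). Mean Il2ra was 304.9 against 109.9 CPM in the cells with 0 Foxp3 reads, and Ikzf2 138.4 against 50.1 CPM. Neither Lrrc32 nor Klrg1 had a read in these 8 cells. Ifng was at a mean of 41.9 against 561 CPM. With 8 cells each, these are values only, and tissue and plate position cannot be told apart.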

How the results depend on the processing

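The shares of genes higher (0.594%) and lower (1.35%) in Foxp3 cells depended on the settings that weigh low levels and few cells. With a pseudocount of 1 CPM they were 1.44% and 2.74%, with one of 50 CPM 0.0832% and 0.368%, and among genes with a mean of at least 50 CPM 0.472% and 1.33%, where fewer genes were compared. They were 0.368% and 0.665% with 1 Foxp3 read as the limit for Foxp3 cells, 0.978% and 2.16% among cells called G1, 1.25% and 2.44% with both column sets pooled, 3.85% and 3.97% in columns 1 to 12 alone and 3.05% and 8.51% in columns 13 to 24 alone. With the mean of log2(CPM + 1) per cell they were 4.09% and 0.677%. Relative to the median gene on that scale, an alternative chosen after seeing the data, they were 1.87% and 1.19%. Causes other than the fewer genes or cells named were not tested. The number of genes stayed within 1.5 times in both directions with no filter on low genes, TMM or scran size factors, thinning to 160000 reads, a limit of 100 Foxp3 reads, no depth limit, a limit of 300000 reads and, both chosen after seeing the data, without the highest cell of each group or without the Foxp3 cell with the most genes. Without those highest cells 34 of the 50 higher genes, Foxp3 included, and 96 of the lower genes passed again. A like number did not always mean the same genes. With a limit of 100 Foxp3 reads 37 of the 50 and 91 of the lower genes passed again, and with one of 300000 reads 40 and 91. With TMM size factors 47 of the 50 did, with scran 50, thinned 48 and with no depth limit 43. With the mean of log2(CPM + 1) per cell 33 higher and 40 lower genes passed again, and relative to the median gene 28 and 54. No named gene that passed in both sets changed sign under these settings. For other pseudocounts, filters on low genes and each column set alone, the rule for passing fixed this in advance. No paired analysis was possible because the result comes from no test and wells carry no shared replicate. Depth limits what a 0 means. A gene at 0 in the 28 Foxp3 cells of columns 13 to 24 may still average 0.298 CPM by counting error of independent reads alone. It may average more where its reads lie in few cells.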

Other observations

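The counts of genes passing 2-fold in both sets below stand beside 0.594% higher and 1.35% lower over all genes compared. Among homing receptors, 1 of 21 measured genes was higher in Foxp3 cells (Ccr8, not without the highest cell of each group) and 3 were lower. Itgb1, the beta-1 integrin chain, had a mean of 103.4 and 179.7 CPM in Foxp3 cells against 356.03 and 466 CPM (log2 ratios −1.69 and −1.33), and its partner Itga4 had −1.38 and −0.77. Itgb7, whose beta-7 chain pairs with CD103 to bind epithelial E-cadherin, had 0.50 and 1.13. Cd44 was lower in both sets (−1.23 and −1.12). Ccr9 had reads in 24.04% and 21.4% of Foxp3 cells against 19.4% and 4.90%, with log2 ratios of 0.49 and 2.32, and the log2 ratios were 0.80 and 1.68 for Ccr2 and 0.89 and 1.09 for Ccr4.

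Of 23 interferon-stimulated genes 2 were lower in Foxp3 cells, Ifih1 (−2.33 and −2.57), which senses viral RNA, and Ifit1 (−1.33 and −3.31), and none was higher, with a median of −0.28. The log2 ratios were −0.51 and −2.37 for Mx1 and −0.63 and −1.88 for Ifit3, in columns 13 to 24 with single cells of 5083 and 5375 CPM among those without Foxp3 reads. Of 19 S100, annexin and galectin genes Capg was higher and Lgals3, galectin-3, lower (−1.496 and −1.75), and Vim, an intermediate filament protein, had 0.83 and 1.15, with a median of 0.09. Of 17 IL-2 and STAT5 targets Socs2 was higher and Bcl2 lower, Bcl2 not without the highest cells, and Pim1, a STAT5-induced kinase, had 0.89 and 0.77. Of 26 genes of NF-kappaB and TNF receptor signalling Tnfrsf1b and Cd74 were higher, Tnfrsf1b not without the highest cells, and Rel lower, with a median of 0.01.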
